A study of Homo sapiens with 6 samples.

Results

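Control HEK293T cells were described on 3 arrays, as the baseline transcriptome of the line. The genes described are those with at least 1 probe of a single annotated symbol whose detection p was under 0.01 on all 3 control arrays. The detection p is the deposited p-value of a probe against the negative control probes of the same array. Of 48803 probes, 27578 were annotated to 1 gene and 11366 of these met the rule. They gave 9332 detected genes of the 18665 genes measured (50.0%).

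The series held 6 Illumina whole-genome arrays of 1 slide, 3 from control HEK293T cells and 3 from HEK293T cells that received cloned hsa-miR-128 (4 µg), which are not used here. The 3 control arrays, in slide sections A to C, carry no treatment in their labels, which leave unsaid whether an empty plasmid was given. The series' design text calls the 3 controls biological triplicates. The labels number no replicates, so the numbers 1 to 3 follow the order of deposit.

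HEK293T descends from human embryonic kidney cells that were transformed with adenovirus DNA, and it also carries the large T antigen of SV40, which binds the retinoblastoma protein. The line divides quickly, takes up plasmids readily and is grown as an adherent culture. A probe's brightness depends on its own sequence as well as on the amount of its transcript, so the levels below rank probe signals, not numbers of transcripts, and a gene is followed between arrays on 1 and the same probe. In a culture read as bulk RNA, fewer cells that express a gene and less of its RNA per cell cannot be told apart.

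Control 1 stood apart from the other controls. Over the 9332 detected genes, the Pearson correlation of normalized log2 intensity was 0.9930 between controls 2 and 3, 0.9739 between controls 1 and 2, and 0.9719 between controls 1 and 3. A difference over 1 on the log2 scale was present in 11 genes between controls 2 and 3 (0.118%), in 271 between controls 1 and 2 (2.90%) and in 350 between controls 1 and 3 (3.75%). The mean signal of the arrays was 659.9, 513.1 and 626.0, and 14345, 14001 and 14213 probes were detected on controls 1 to 3. Most levels below are therefore given on every array, in the order control 1, control 2 and control 3, followed by the mean ± SD over the 3 arrays. Their small number limits the precision of every value.

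Detected and undetected genes were nearly equal in number. On all 3 controls 9332 genes were detected, 8315 were detected on none (44.5%), and the remaining 1018 (5.45%) had probes that passed on some control but none that passed on all 3. Of the 11366 named probes that met the rule, 9327 had a detection p of 0 on all 3 arrays. A p of 0 does not say how far a probe's signal lay above the threshold. Just inside it lay 161 named probes whose highest p was 0.009223, with a median log2 intensity of 6.22, and just outside it 10 probes at 0.01054, with a median of 6.18. Protein-coding genes were detected in 9173 of 17208 cases (53.3%), long noncoding RNA genes in 58 of 1055 (5.50%), transcribed pseudogenes in 68 of 281 (24.2%) and small nucleolar RNA genes in 18 of 56 (32.1%). Probes without a gene name here met the detection threshold in 1850 of 21212 cases (8.72%), against 41.2% of named probes.

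The detected genes spanned more than 9 log2 units of probe signal. From a mean log2 intensity of 5.97 they reached 15.54, with a median of 9.14. In the dimmest class, under 7, lay 1213 genes, in the class from 7 to 8 lay 1566, from 8 to 10 lay 3306, from 10 to 12 lay 2351, and at 12 or more lay 896 (9.60%). The 10 brightest genes held 2.75% of the summed signal, the 100 brightest 18.0%, and 656 genes held 50% of it.

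**Figure D1:**
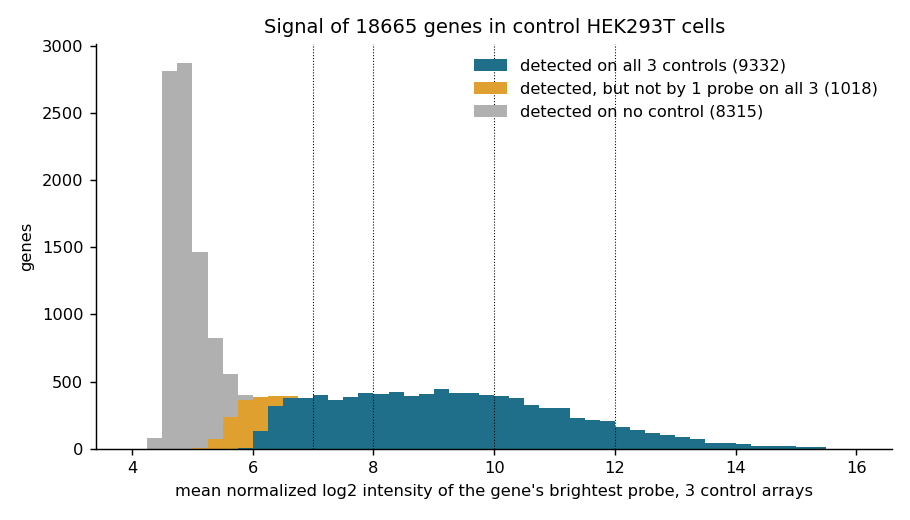
Number of genes (vertical axis) by the mean normalized log2 intensity of their brightest probe over the 3 control arrays (horizontal axis), stacked by detection; dotted lines mark the class limits at 7, 8, 10 and 12. The 8315 genes detected on no control pile up at the dim end, and the 9332 detected genes spread from 5.97 to 15.54 with no separate bright group.

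The brightest probes belonged mostly to the protein synthesis machinery. Of the 20 brightest genes 12 encode cytosolic ribosomal proteins. RPS2, a protein of the small ribosomal subunit, had log2 intensities of 15.57, 15.52 and 15.53 (mean 15.54 ± 0.03 SD, n = 3, as in all values below). EEF1A1, the elongation factor that brings aminoacyl-tRNA to the ribosome, had 15.45, 15.53 and 15.63 (15.54 ± 0.09). RPL41, the smallest protein of the large subunit, had 15.42, 15.48 and 15.57 (15.49 ± 0.08). Quantile normalization gives every array the same set of values, so close agreement at the brightest ranks is partly built in. The SD of these genes was below the median of all detected genes, 0.192. Cytoskeletal genes joined them, with ACTG1, cytoplasmic gamma-actin, at 15.45, 15.57 and 15.45 (15.49 ± 0.07) and TUBA1B, an alpha-tubulin, at 15.31, 15.37 and 15.37 (15.35 ± 0.04). TPT1, a translationally controlled growth protein, had 15.31, 15.33 and 15.35 (15.33 ± 0.02).

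Transcripts of ribosomal proteins and elongation factors are known to begin with a cytosine followed by a run of pyrimidines, the terminal oligopyrimidine motif through which mTOR signalling tunes their translation. RefSeq promoter windows on GRCh38.p14, which run from 250 bases before to 50 bases after the annotated start, were therefore read for a C and 4 pyrimidines at the first 5 bases of the transcript, on the gene's strand only. The 30 bases around the start are shown for 7 of the 20 brightest genes, with the matching letters in capitals.
EEF1A1: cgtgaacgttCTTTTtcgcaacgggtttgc
RPL41: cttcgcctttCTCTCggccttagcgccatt
RPL39: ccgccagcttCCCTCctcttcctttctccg
RPS6: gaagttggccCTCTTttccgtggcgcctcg
RPLP1: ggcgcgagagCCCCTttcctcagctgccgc
TPT1: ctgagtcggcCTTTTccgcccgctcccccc
RPL6: gtatcctcagtgaatcagaaccagaaaaag
These stretches lie at chr6:73521013-73521042, minus strand (EEF1A1), chr12:56116623-56116652, plus strand (RPL41), chrX:119791611-119791640, minus strand (RPL39), chr9:19380217-19380246, minus strand (RPS6), chr15:69452808-69452837, plus strand (RPLP1), chr13:45341164-45341193, minus strand (TPT1) and chr12:112411423-112411452, minus strand (RPL6). The last one, RPL6, has no match at its annotated start and is shown for contrast. Such a start was present in 41 of 58 detected ribosomal protein genes with a RefSeq promoter (70.7%), in 453 of 7780 detected genes (5.82%) and in 1104 of all 27305 promoters of the RefSeq table (4.04%). Among genes at 12 or more it was present in 13.3%. A match describes these letters and shows nothing about regulation in the cells.

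Several of the brightest readings rested on 1 probe of a gene whose other probes were silent. Of the 100 brightest genes, 59 had several probes, and 19 of these had at least 1 that was detected on no control. ACTG1 had 1 of 2 probes detected and SLC7A5P2, a pseudogene of an amino acid transporter, also 1 of 2, with 15.33, 15.42 and 15.40 (15.38 ± 0.05). ITIH5, an inter-alpha-trypsin inhibitor heavy chain, had 15.04, 15.16 and 15.12 on 1 of its 5 probes, and the brightest of the other 4 stood at 4.98. Genes known from leukocytes stood among them: LAIR1, an inhibitory receptor of immune cells, had 15.07, 15.35 and 15.38 (15.27 ± 0.18) on its only probe, the chemokine receptor CCR6 14.88, 14.67 and 14.73 on 1 of 3 probes, and the immunoglobulin-like receptor LILRB3 14.89, 14.67 and 14.68 on 1 of 2. Which transcript those probes read was not tested. Over all 1830 detected genes with several detected probes, the brightest and the dimmest lay a median of 1.37 apart, and 635 (34.7%) were more than 2 apart. Silent probes were not limited to the brightest genes: 3541 detected genes had several probes, and 2065 of these had at least 1 detected on no control. Below, probe numbers are given for some genes only. Only 1 probe met the rule also for PCNA, EYA1 and C11orf96 (of 3), GFRA1 and ACVR1B (of 4), FGA (of 5) and KRT16 (of 2).

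The machines that every dividing cell needs were detected nearly whole. All 34 translation factors, 21 chaperones, 25 mitosis genes and 19 aminoacyl-tRNA synthetases measured were detected, as were 68 of 69 cytosolic ribosomal proteins, 59 of 60 mitochondrial ribosomal proteins and 65 of 68 subunits of the respiratory chain and ATP synthase, against 50.0% of all genes. The median level of the detected members was 14.23 for cytosolic ribosomal proteins, 13.09 for the cytoskeleton, 12.70 for chaperones, 12.69 for the respiratory chain, 12.52 for translation factors, 12.39 for the proteasome, 12.05 for aminoacyl-tRNA synthetases and 11.92 for glycolysis. Core splicing factors had 11.65, replication genes 11.24, mitochondrial ribosomal proteins 11.12 and mitosis genes 10.82, all above the 9.14 of all detected genes. Some missing members are genes that every cell is known to use: RPL10, an essential ribosomal protein, had 2 probes and a lowest detection p of 0.01713, and the actin-binding TMSB4X had 1 probe at 0.02108.

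Energy metabolism was read on many bright probes. ATP5F1B, the catalytic beta subunit of ATP synthase, had 14.84, 14.90 and 15.02 (14.92 ± 0.09), and COX7C, a subunit of cytochrome c oxidase, 14.19, 14.25 and 14.33 (14.25 ± 0.07). In glycolysis, ENO1, which makes phosphoenolpyruvate, had 14.67, 14.89 and 14.89 (14.82 ± 0.13) and LDHA, which reduces pyruvate to lactate, 14.64, 14.80 and 14.81 (14.75 ± 0.10). Glycolytic genes also spread least between arrays of all 12 machine lists, with a median SD of 0.093. Of the 20 measured, only PKLR, the pyruvate kinase of liver and red cells, was not detected, on any of its 5 probes. The immunoproteasome subunits PSMB8 and PSMB9, which replace standard subunits after interferon, were likewise not detected, nor was PSMC4, an ATPase of the standard 26S proteasome, while the other 27 of 30 proteasome genes were. PSMB1, a standard subunit of the 20S core, had 14.12, 14.39 and 14.22 (14.24 ± 0.14).

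Genes of the dividing cell were read on bright probes, with a median SD of 0.197 for replication and 0.158 for mitosis, against 0.192 for all genes. PCNA, the sliding clamp of DNA polymerase, had 13.24, 13.46 and 13.48 (13.39 ± 0.13), and ORC6, a subunit of the origin recognition complex, 15.02, 14.80 and 14.84 (14.88 ± 0.12). RRM1, the large subunit of ribonucleotide reductase, had 13.95, 14.06 and 14.14 (14.05 ± 0.10) and FEN1, the flap endonuclease of lagging strands, 13.40, 13.77 and 13.82 (13.67 ± 0.23). Among 32 replication genes measured, 30 were detected on all controls. Control 1 was the lowest array for 24 of these, against 43.0% of all genes, with a median difference of -0.26 from the other controls. In mitosis, PTTG1, the securin that holds back separase, had 13.87, 13.32 and 13.46 (13.55 ± 0.28), UBE2C, an E2 enzyme of the anaphase-promoting complex, 13.57, 13.12 and 13.12 (13.27 ± 0.26), and CDC20, which activates that complex, 12.75, 12.96 and 12.86 (12.86 ± 0.10). TOP2A, the topoisomerase that untangles chromosomes, had 13.04, 12.48 and 12.64 (12.72 ± 0.29) and CCNB2, a mitotic cyclin, 12.25, 12.39 and 12.37 (12.34 ± 0.07). The proliferation marker MKI67 was read on a dim probe, at 6.14, 6.10 and 6.52 (6.25 ± 0.23), close to the detection limit.

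Mitotic genes are known for promoters with CCAAT boxes bound by NF-Y, and for the cell cycle homology region, TTTGAA or TTCGAA. The letters CCAAT, on either strand, were present in 17 of the 20 detected mitosis genes with a RefSeq promoter (85.0%), in 16 of 27 replication genes (59.3%), in 38.1% of detected genes and in 35.7% of all promoters. TTTGAA or TTCGAA, on either strand and before the start, were present in 10 of the 20 (50.0%), in 9.59% of detected genes and in 14.6% of all promoters. Both motifs can overlap others, and the second was chosen after values of these data had been seen. The promoters of CCNB2 (chr15:59104896-59105195, plus strand) and TOP2A (chr17:40417847-40418146, minus strand) are shown because each holds 4 copies of CCAAT or its reverse complement ATTGG, in capitals.
CCNB2: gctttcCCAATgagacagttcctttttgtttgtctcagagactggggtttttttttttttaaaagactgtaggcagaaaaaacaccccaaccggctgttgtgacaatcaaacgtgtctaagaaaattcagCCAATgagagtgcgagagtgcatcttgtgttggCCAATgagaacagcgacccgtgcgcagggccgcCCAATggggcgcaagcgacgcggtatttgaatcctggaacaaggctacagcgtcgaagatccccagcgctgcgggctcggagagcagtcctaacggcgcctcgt
TOP2A: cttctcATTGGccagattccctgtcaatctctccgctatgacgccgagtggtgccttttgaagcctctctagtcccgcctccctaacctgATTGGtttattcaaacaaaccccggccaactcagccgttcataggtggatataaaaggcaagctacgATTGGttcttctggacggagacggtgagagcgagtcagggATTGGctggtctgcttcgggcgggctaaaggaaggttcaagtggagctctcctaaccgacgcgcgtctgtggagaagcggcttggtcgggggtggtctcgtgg
The copies of CCNB2 all read CCAAT on the gene's strand and those of TOP2A all read ATTGG.

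Detected genes lay mostly behind promoters rich in CpG. The ratio of observed to expected CpG was at least 0.6 in 85.2% of the promoters of detected genes, of which 7780 of 9332 had one, and in 49.0% of all 27305 promoters. The share was 81.2% in the class from 7 to 8, 85.5% from 8 to 10, 90.5% from 10 to 12 and 90.9% at 12 or more. GGGCGG, the core letters of a GC box, stood on either strand in 71.1% of detected genes and 44.6% of all promoters, and TATAAA, on the gene's strand from 40 to 16 bases before the start, in 1.59% and 2.54%. The 27305 promoters outnumber the 18665 genes measured, so they include genes that the array did not read. Of the 9332 detected genes, 9173 are protein-coding. Detection, array content and gene type therefore cannot be told apart in any comparison with all promoters. For genes detected on no control, 6240 of 8315 (75.0%) had a RefSeq promoter, under the 80% set as a minimum, so their share is not given. The promoters of PCNA (chr20:5126573-5126872, minus strand), detected on every control, and of ALB, the liver's serum albumin (chr4:73404037-73404336, plus strand), detected on none, are shown as a CpG-rich and a CpG-poor example, with each CG in capitals.
PCNA: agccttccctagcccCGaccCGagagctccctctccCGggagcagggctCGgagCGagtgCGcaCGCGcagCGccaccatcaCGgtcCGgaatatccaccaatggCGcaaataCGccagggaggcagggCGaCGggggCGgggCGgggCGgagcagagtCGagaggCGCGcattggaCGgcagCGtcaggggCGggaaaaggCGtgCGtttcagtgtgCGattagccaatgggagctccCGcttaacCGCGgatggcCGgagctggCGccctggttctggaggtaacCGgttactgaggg
ALB: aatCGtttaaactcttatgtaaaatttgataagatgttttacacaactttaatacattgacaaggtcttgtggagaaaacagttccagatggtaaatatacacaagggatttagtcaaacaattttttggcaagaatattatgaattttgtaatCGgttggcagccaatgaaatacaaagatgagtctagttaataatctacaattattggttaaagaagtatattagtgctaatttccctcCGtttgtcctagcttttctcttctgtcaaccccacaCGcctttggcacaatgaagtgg
PCNA has 33 CG pairs in these 300 bases and ALB has 4.

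Markers of the mature kidney were mostly silent, although the labels give the source as embryonic kidney. In the proximal tubule list 1 of 14 measured genes was detected, in the loop of Henle and distal tubule list 0 of 8, in the collecting duct list 4 of 11 and in the podocyte list 3 of 8, against 50.0% of all genes. LRP2 and CUBN, the endocytic receptors megalin and cubilin of the proximal tubule, and the transporters SLC34A1 and SLC5A2 were not detected, nor were SLC12A1, the target of loop diuretics, AQP2, the water channel of the collecting duct, or NPHS1, the nephrin of the podocyte slit. For LRP2 the lowest detection p was 0.01449, for CUBN 0.4796, for AQP2 0.1555 and for NPHS1 0.2899. The single proximal tubule gene detected was the amino acid transporter SLC7A9, at 6.36, 6.41 and 6.92 (6.56 ± 0.31). In the collecting duct list KRT19, a simple epithelial keratin, had 9.76, 9.77 and 9.66 (9.73 ± 0.06). Dimmer were SCNN1A, a subunit of the epithelial sodium channel, at 7.55, 6.88 and 7.53 (7.32 ± 0.38), ATP6V1B1, a proton pump subunit of intercalated cells, at 7.06, 6.84 and 6.26 (6.72 ± 0.41), and the transcription factor GATA3 at 6.08, 6.29 and 6.43 (6.26 ± 0.18). Of the podocyte list PODXL, a sialomucin also found on stem cells, had 9.68, 9.26 and 9.53 (9.49 ± 0.21), and NES and CD2AP were detected as well.

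Of the genes that build the embryonic kidney, 5 of 13 were detected (38.5%), against 50.0% of all genes. HOXD11, a homeobox gene of the metanephric mesenchyme, had a mean of 8.01 ± 0.15 and EYA1, a transcriptional co-activator, 7.78, 7.54 and 7.46 (7.60 ± 0.16). GFRA1, a GDNF co-receptor, had a mean of 6.93 ± 0.15, OSR1, an early marker of intermediate mesoderm, 6.91, 6.81 and 6.08 (6.60 ± 0.45), and WNT11, a signal of ureteric tips, 6.78, 6.13 and 6.25 (6.39 ± 0.35). All 5 lay below the median level of detected genes. SIX2, which keeps nephron progenitors undifferentiated, had a lowest detection p of 0.01186, CITED1 of 0.01845, PAX2 of 0.1054 and SALL1 of 0.1238, and none was detected on any control. RET, the GDNF receptor, was detected on 1 control. The adrenal lists were also nearly empty: 2 of 12 adrenal cortex genes were detected, with the steroidogenic CYP11B1, CYP17A1, NR5A1 and STAR on no control, and 1 of 10 chromaffin genes, GATA2, at 6.76, 6.23 and 6.41 (6.47 ± 0.27), with TH, DBH, PNMT and CHGA on none.

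**Figure D2:**
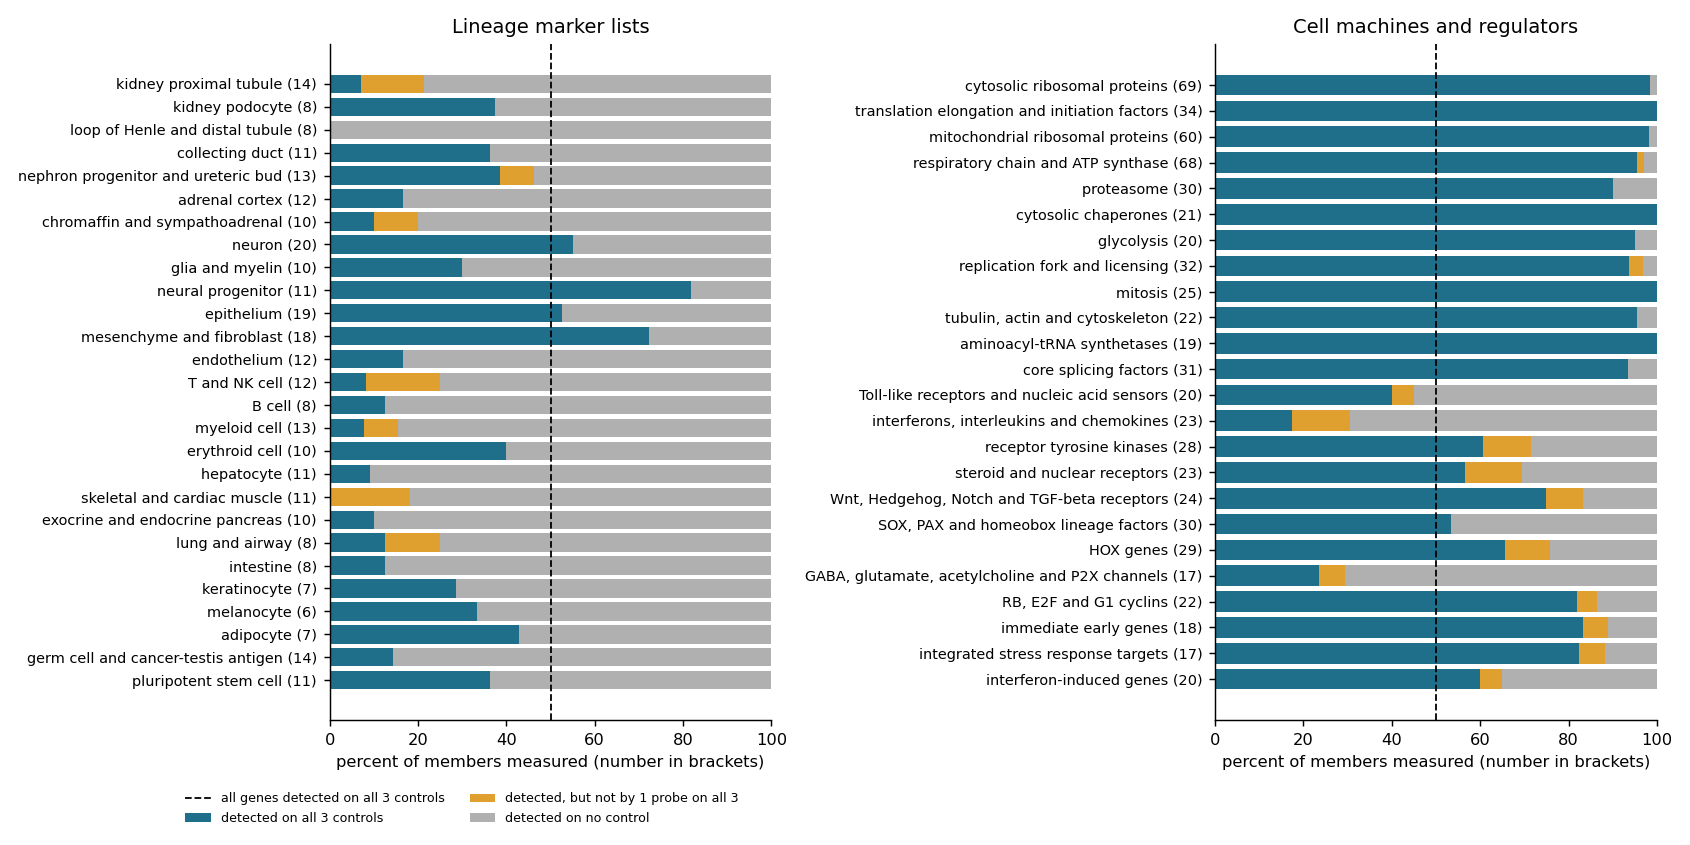
Share of the measured members of each gene list shown (horizontal axis, percent; number measured in brackets) that were detected on all 3 controls, detected otherwise or detected on no control, with the 50.0% of all genes as a dashed line. All machine lists lie far to the right of the dashed line, and the lists of kidney, blood, liver and muscle cells to its left.

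Some epithelial and some mesenchymal markers were detected. Of 19 epithelial genes 10 were detected, a share near the 50.0% of all genes, and of 18 mesenchymal genes 13, which became 8 at a detection p under 0.001. KRT18 and KRT8 are the keratin pair of simple epithelia. KRT18 had 12.82, 13.16 and 13.34 (13.11 ± 0.27) on 1 of 3 probes, and KRT8 a mean of 12.09 ± 0.11 on its only probe. JUP, the plakoglobin of junctions, had 11.17, 10.88 and 10.69 (10.91 ± 0.24) on 1 of 3 probes, and TJP1, the tight junction scaffold ZO-1, 9.70, 9.99 and 10.13 (9.94 ± 0.22). Cadherins were split. CDH1, the epithelial E-cadherin, was not detected (1 probe, lowest detection p 0.04348), EPCAM stood near the detection limit at 6.06, 6.78 and 6.82 (6.55 ± 0.43), and CDH2, the neural and mesenchymal N-cadherin, had 11.86, 11.65 and 11.55 (11.69 ± 0.16). KRT7, CLDN4 and CLDN3 were also not detected. VIM, the intermediate filament vimentin, had 13.03, 12.74 and 12.70 (12.82 ± 0.18), TWIST1, a transcription factor of mesenchyme, 9.25, 9.12 and 8.91 (9.09 ± 0.17), and the collagen COL1A1 8.62, 8.16 and 7.78 (8.19 ± 0.42). FN1, the fibronectin of the matrix, was not detected on any of 3 probes, with a lowest p of 0.1094, and COL1A2 and the fibroblast marker THY1 were not detected either.

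Genes known from neural progenitors were mostly detected, 9 of 11, without SOX1 (lowest p 0.2161) and FABP7 (0.02108). Among the detected, VIM and CDH2 also belong to the mesenchymal list, and NES to the podocyte list. In the neuron list 11 of 20 were detected, a share near the 50.0% of all genes. SOX2, a factor of neural and pluripotent stem cells, had 9.27, 9.22 and 9.45 (9.31 ± 0.12), PAX6, a factor of eye and forebrain, 8.58, 8.73 and 8.96 (8.76 ± 0.19), the receptor NOTCH1 a mean of 10.10 ± 0.09 and its target HES1 10.48, 9.85 and 9.94 (10.09 ± 0.34). In none of these genes did the arrays lie more than 1 apart. Among neuronal genes, UCHL1, a ubiquitin hydrolase abundant in neurons, had 12.62, 12.59 and 12.67 (12.63 ± 0.04), ENO2, the neuronal enolase, 11.38, 10.54 and 10.40 (10.77 ± 0.53), TUBB3, the neuronal beta-tubulin, 9.91, 9.65 and 9.54 (9.70 ± 0.19), and PRPH, the filament of peripheral neurons, 10.89, 9.49 and 9.31 (9.90 ± 0.87). Control 1 was the highest array for ENO2, TUBB3 and PRPH, and for 7 of the 11, against 40.5% of all genes. NEFL, the light neurofilament, had 8.69, 8.80 and 8.55 (8.68 ± 0.12), while its partners NEFM (lowest p 0.01449) and NEFH (0.3636) were not detected. The RNA-binding ELAVL4 and ELAVL3 were not detected, and of 10 glial genes 3 were, without GFAP, AQP4, S100B and MAG.

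**Figure D3:**
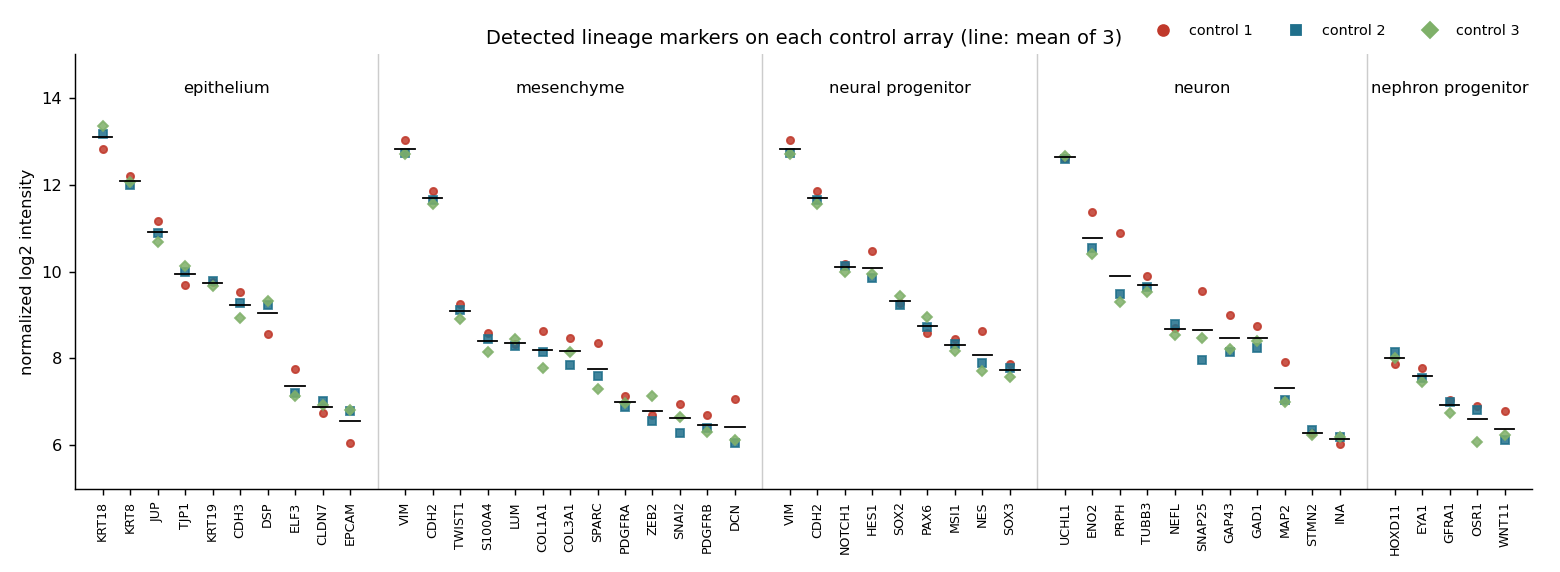
Normalized log2 intensity (vertical axis) of each detected member of 5 lineage lists, with 1 symbol per control array and a line at the mean. KRT18 is lowest on control 1 and VIM highest, and all 5 nephron progenitor genes lie below 9. Control 1 is the highest array for 11 of the 13 mesenchymal genes, against 40.5% of all detected genes.

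Markers of blood, vessel, liver, muscle and gland cells were mostly undetected, while 50.0% of all genes were detected. Of the lists in this paragraph the erythroid one, with 4 of 10, came nearest to that share. Among T and NK cell genes 1 of 12 was detected, CD8A, at 6.14, 6.20 and 6.24 on 1 of its 3 probes, and CD3E, CD3D, CD2 and LCK were not. Of 8 B cell genes 1 was, CD79B, at 6.71, 6.03 and 6.53 on 1 of 3 probes, without MS4A1 and CD79A. Of 13 myeloid genes only CD68, a lysosomal glycoprotein that many cells make, passed, at 11.05, 10.65 and 10.48 (10.73 ± 0.29). ITGAM, CSF1R and LYZ were not detected, and CD14 was detected on 1 control. In the endothelial list VWF and ESAM passed of 12, and PECAM1, CDH5, KDR and TEK did not. No muscle gene of 11 was detected on all controls, and MYH7, MYH2, ACTA1 and MYOD1 were on none. The single genes detected elsewhere were FGA, a fibrinogen chain, of 11 hepatocyte genes, CEL, a bile salt-stimulated lipase, of 10 pancreas genes, NKX2-1 of 8 lung genes and CDX2, a homeobox factor of the gut, of 8 intestinal genes, the last at 9.03, 9.50 and 9.15 (9.23 ± 0.25). HBA1, an alpha-globin, had 7.63, 7.48 and 7.77 (7.63 ± 0.15), with HBB, HBG1 and HBG2 undetected. TFRC, the transferrin receptor, which all dividing cells use, had 11.84, 12.32 and 12.54 (12.24 ± 0.36). The others of the 4 detected among 10 erythroid genes were SLC25A37, a mitochondrial iron importer, at 9.71, 9.10 and 8.98 (9.26 ± 0.39), and EPOR, the erythropoietin receptor, at 8.87, 7.89 and 7.92 (8.23 ± 0.56). Of 7 keratinocyte genes KRT10 and SFN were detected, and of 6 melanocyte genes MITF and PMEL.

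Stem cell and germ cell genes were a mixture. Detected were 36.4% of pluripotency, 14.3% of germ cell and 42.9% of 7 adipocyte genes, against 50.0% of all genes. Of 11 pluripotency genes 4 were detected: LIN28B, which blocks maturation of let-7 microRNAs, at 11.07, 11.35 and 11.19 (11.20 ± 0.14), the DNA methyltransferase DNMT3B at 10.25, 9.80 and 10.26 (10.10 ± 0.26), PODXL, and SALL4 at 7.08, 6.92 and 6.96 (6.99 ± 0.08). POU5F1, NANOG and LIN28A, with lowest detection p-values of 0.04743, 0.07642 and 0.5362, were detected on none. PRAME, a cancer-testis antigen, had 10.37, 10.52 and 10.55 (10.48 ± 0.10) and TESMIN, a testis metallothionein-like protein, 7.33, 7.19 and 7.06 (7.19 ± 0.14), and the other 12 germ cell genes measured, including DAZL, PRM1, SYCP3 and MAGEA1, were not detected. Of adipocyte genes PPARG, the nuclear receptor of fat cells, had 9.91, 10.10 and 10.12 (10.04 ± 0.12), LEP, leptin, 10.15, 9.64 and 9.57 (9.78 ± 0.32) on 1 of 2 probes, and LPL, lipoprotein lipase, 9.14, 8.42 and 8.47 (8.67 ± 0.41), without ADIPOQ, FABP4 and PLIN1.

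Positional genes of the HOX clusters were detected in 19 of 29 cases, against 50.0% of all genes. HOXC6 had 11.12, 11.38 and 11.37 (11.29 ± 0.15), HOXB7 10.96, 11.46 and 11.28 (11.23 ± 0.25) and HOXC4 10.46, 10.28 and 9.84 (10.19 ± 0.32), followed by HOXC13 with 9.08, 9.51 and 9.47 (9.35 ± 0.24). Detected members came from clusters B, C and D, from HOXB1 to HOXD13. From cluster A only HOXA2 was measured, and it was not detected on all 3 controls. Control 1 was the lowest array for 13 of the 19, against 43.0% of all genes. SOX, PAX and other lineage factors were detected in 16 of 30 cases, close to that share. The brightest were SOX4, at 11.24, 10.29 and 10.10 (10.54 ± 0.61), SIX4 at a mean of 10.03 ± 0.34 and SOX11 at 10.65, 9.69 and 9.69 (10.01 ± 0.55). The kidney factors PAX2, PAX8, LHX1 and SIX2 were not detected.

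Receptors for developmental signals were detected in 18 of 24 cases, against 50.0% of all genes. LRP5, the Wnt co-receptor, had 10.90, 10.65 and 10.42 (10.66 ± 0.24), FZD2, a Frizzled receptor, 10.66, 10.62 and 10.21 (10.50 ± 0.24), and ACVR1B, an activin receptor, a mean of 9.97 ± 0.11. PTCH1, the Hedgehog receptor and target, was not detected (lowest p 0.01449), while SMO, its signalling partner, had 9.21, 9.34 and 9.14 (9.23 ± 0.10). Receptor tyrosine kinases were detected in 17 of 28 cases, nearer to that share. FGFR3, a fibroblast growth factor receptor, had 11.86, 11.93 and 11.90 (11.90 ± 0.03) on 1 of 2 probes. DDR1, a collagen receptor, had 10.13, 9.69 and 9.76 (9.86 ± 0.24) on 1 of 3 probes, and KIT, the stem cell factor receptor, 10.11, 9.58 and 9.74 (9.81 ± 0.27). ERBB4, INSR and FGFR1 were not detected. Control 1 was the highest array for 13 of the 17 kinases, against 40.5% of all genes. Among nuclear receptors 13 of 23 were detected, also near the share of all genes, led by RXRA, the shared partner of many of them, at 10.26, 10.49 and 10.32 (10.36 ± 0.12), without ESR1, ESR2, PGR and THRB.

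Of 20 Toll-like receptors, nucleic acid sensors and their adaptors 8 were detected, against 50.0% of all genes, led by TICAM1, the adaptor of TLR3, at 9.52, 9.49 and 9.03 (9.35 ± 0.28), IRF3, the factor that it activates, at 9.35, 8.89 and 8.69 (8.97 ± 0.34), and STING1 at 8.75, 8.84 and 8.77 (8.78 ± 0.05). TLR2, TLR4, TLR6 and TLR7 were not detected, nor were CGAS, RIGI and MYD88. Among 23 interferons, interleukins and chemokines 4 were detected. IL18, a cytokine of the interleukin-1 family, had 14.03, 13.71 and 13.83 (13.86 ± 0.16) on its only probe, IL10, an anti-inflammatory cytokine, 12.56, 12.39 and 12.20 (12.38 ± 0.18) on 1 of 2 probes, and CCL2, a monocyte chemokine, 8.90, 8.13 and 8.02 (8.35 ± 0.48). No interferon of the list was detected, although in the wider family of alpha interferons 1 of 13 was, IFNA8, at 7.26, 7.07 and 7.41 (7.25 ± 0.17). Interferon-induced genes were detected in 12 of 20 cases, against 50.0% of all genes, with IFITM3, which blocks viral entry, at 12.07, 11.80 and 11.83 (11.90 ± 0.15) and BST2, the tetherin of budding viruses, at 11.04, 11.26 and 11.10 (11.13 ± 0.12). Ligand-gated channels of neurons and P2X channels passed in 4 of 17 cases, with the nicotinic subunit CHRNA5 at 12.19, 11.67 and 12.07 (11.98 ± 0.27).

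Genes around RB, a protein that large T antigen binds, were mostly detected. Of 22 genes of RB, E2F and the G1 cyclins 18 were detected, against 50.0% of all genes, among them CDK4 at 12.86, 13.04 and 13.04 (12.98 ± 0.11), its cyclins CCND2 at 12.80, 12.84 and 12.92 (12.85 ± 0.06) and CCND3 at 11.74, 11.84 and 11.76 (11.78 ± 0.05), and CDKN1A, the cyclin-dependent kinase inhibitor p21, at 12.50, 12.15 and 11.93 (12.19 ± 0.29). CDKN2A, the locus of p16 and ARF, had 9.74, 10.59 and 10.11 (10.15 ± 0.43) on 1 of 3 probes. RB1, E2F1 and CCNE2 were not detected, each read by 1 probe, with lowest detection p-values of 0.02372, 0.108 and 0.9236.

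Families named by their symbols gave the same contrast. Olfactory receptors were detected in 3 of 382 cases (0.785%), keratin-associated proteins in 2 of 79 (2.53%), taste receptors in 0 of 24, beta-defensins in 2 of 29 (6.90%), keratins in 7 of 48 (14.6%), orphan receptors in 11 of 70 (15.7%), potassium channels in 15 of 91 (16.5%) and cytochromes P450 in 14 of 55 (25.5%). Mitochondrial ribosomal proteins were detected in 76 of 79 (96.2%), complex I subunits and assembly factors in 37 of 40 (92.5%), RAB GTPases in 47 of 73 (64.4%) and zinc finger genes in 282 of 448 (62.9%). Solute carriers stood near all genes, with 182 of 387 (47.0%) against 50.0%. Clustered histone genes were detected in 13 of 71 (18.3%), although H4C3, a replication histone, had 14.85, 15.05 and 15.04 (14.98 ± 0.11). How well the RNA amplification captures histone transcripts was not tested, so this share does not show that the genes are silent. Of 33 MAGE genes 8 were detected, with MAGED1, a broadly expressed member, at 13.59, 13.85 and 13.96 (13.80 ± 0.19).

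Between the controls, the typical gene varied little. The median SD over the 3 arrays was 0.192 on the log2 scale, and the median ratio of a gene's SD to the error expected from its beads on 1 array was 2.22. By class of signal, the median SD was 0.230 under 7, 0.232 from 7 to 8, 0.201 from 8 to 10, 0.167 from 10 to 12 and 0.134 at 12 or more. The steadiest genes of mean 8 or more were PIGF, an enzyme of GPI anchors, at 11.09, 11.09 and 11.09, TMBIM6, a protein of the endoplasmic reticulum, at 13.83, 13.84 and 13.84, TMEM39B at 8.98, 8.99 and 8.98, RPL9 at 15.05, 15.05 and 15.05 and RAB7A, a GTPase of late endosomes, at 12.18, 12.19 and 12.18. Without control 1 the median SD was 0.098, and the median difference between controls 2 and 3 was 1.11 times their bead error.

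A range over 1 on the log2 scale, that is, more than a doubling, was present in 426 detected genes (4.56%), and in 26 the range was over 2. Control 1 was the highest array in 305 of the 426, the lowest in 118 and the middle one in 3. Over all 9332 genes it was highest in 40.5% and lowest in 43.0%. The difference of control 1 from the mean of the others had a Spearman correlation over 9326 genes of 0.04 with the gene's genomic span, and of -0.03 with its mean level over the detected genes. Between controls 2 and 3 the correlation with span was -0.19. Genes are not independent replicates, and these coefficients are descriptions.

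**Figure D4:**
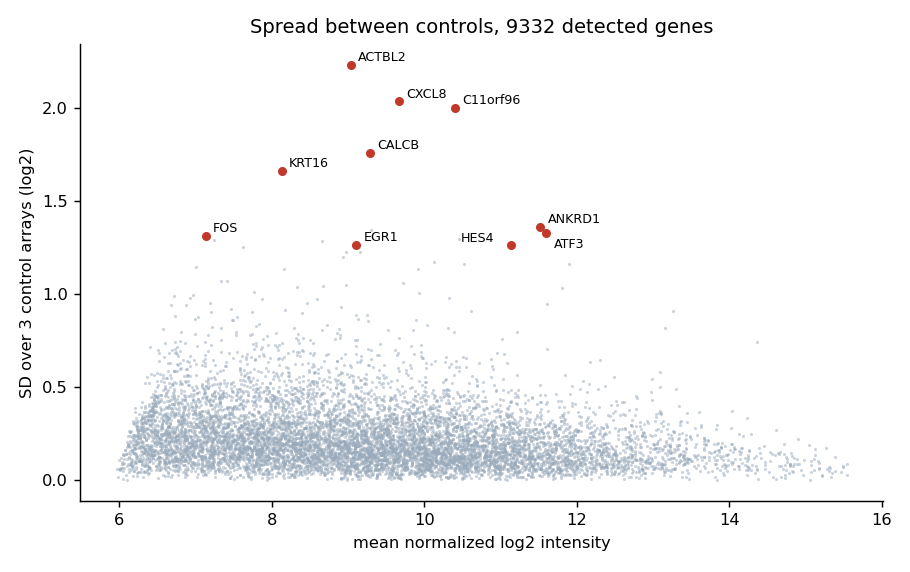
SD over the 3 control arrays (vertical axis, log2) against mean normalized log2 intensity (horizontal axis), 1 point per detected gene, with 10 of the most variable genes named in red. Most genes lie near the median of 0.192, and ACTBL2 lies highest at 2.23.

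Of the genes with the largest SD, those named next, apart from HES4, were far higher on control 1. ACTBL2, a beta-actin-like protein, had 11.62, 7.82 and 7.69 (9.04 ± 2.23). CXCL8, the neutrophil chemokine interleukin-8, had 12.02, 8.57 and 8.42 (9.67 ± 2.04), and KRT16, a keratin of stressed epidermis, 10.04, 7.01 and 7.34 (8.13 ± 1.66). In each of them controls 2 and 3 lay close together and control 1 lay far above both. ANKRD1, a target of YAP, had 13.08, 10.93 and 10.56 (11.52 ± 1.36), CCN1, a matricellular protein, 11.96, 9.76 and 9.66 (10.46 ± 1.30), and GDF15, a stress cytokine, 10.85, 8.57 and 8.47 (9.30 ± 1.35). C11orf96 had 12.70, 9.54 and 8.98 (10.41 ± 2.00) and CALCB, a calcitonin gene-related peptide, 11.31, 8.17 and 8.38 (9.29 ± 1.76). PAPPA, THBS2 and BEST1 showed the same order, with control 1 highest by at least 2 on the log2 scale. HES4, a Hairy-related transcription factor, differed, with 12.23, 11.44 and 9.75 (11.14 ± 1.26): here control 3 lay apart below the other arrays.

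Immediate early genes, which transcription factors switch on within minutes of a stimulus, were higher on control 1 as a list. Of 15 detected members control 1 was the highest array for 14, against 40.5% of all genes, and 8 had a range over 1, against 4.56%. The median difference of control 1 from the mean of the other controls was 1.06, against -0.01 over all genes. FOS, a component of AP-1, had 8.64, 6.18 and 6.59 (7.14 ± 1.32), and JUN, its partner, 12.99, 11.32 and 11.09 (11.80 ± 1.03). EGR1, a zinc finger factor of growth signals, had 10.52, 8.74 and 8.07 (9.11 ± 1.27), ATF3, a stress-induced factor, 13.13, 10.91 and 10.76 (11.60 ± 1.33), and DUSP1, a phosphatase of MAP kinases, 14.09, 12.58 and 12.79 (13.16 ± 0.82). KLF2, a Krüppel-like factor, had 11.65, 10.24 and 9.94 (10.61 ± 0.91). In all 6 of these genes control 1 lay above both others, by more than those differed from each other. The exception was EGR3, at 6.27, 6.34 and 6.52 (6.38 ± 0.13), where control 1 was the lowest. Without control 1, 0 of the 15 were more than 1 apart, and the median SD of the list was 0.162 in place of 0.630. Over all genes it was 0.098 in place of 0.192. Some of each drop is built in, since control 1 was left out for standing apart and the SD is then over 2 arrays.

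Serum and stress reach these genes through known elements, the CArG box bound by serum response factor and TGACGTCA bound by CREB and ATF proteins. Both were chosen after values of these data had been seen and were searched on both strands over the whole window. TGACGTCA was present in 2 of the 12 immediate early genes with a RefSeq promoter, JUND and DUSP1, in 3.62% of detected genes and in 1.98% of all promoters. The CArG box was present in 1, EGR1, in 1.09% of detected genes and in 1.29% of all promoters. The promoters of EGR1 (chr5:138465229-138465528, plus strand), with its CArG boxes in capitals, and DUSP1 (chr5:172771146-172771445, minus strand), with TGACGTCA in capitals, are shown as the 2 members that hold these letters and whose arrays differed most.
EGR1: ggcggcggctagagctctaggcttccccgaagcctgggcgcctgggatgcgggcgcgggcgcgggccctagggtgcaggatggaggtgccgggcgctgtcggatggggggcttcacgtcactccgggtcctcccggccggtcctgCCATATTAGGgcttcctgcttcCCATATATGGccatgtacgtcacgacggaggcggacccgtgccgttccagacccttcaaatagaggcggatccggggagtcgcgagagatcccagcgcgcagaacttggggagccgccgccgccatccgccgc
DUSP1: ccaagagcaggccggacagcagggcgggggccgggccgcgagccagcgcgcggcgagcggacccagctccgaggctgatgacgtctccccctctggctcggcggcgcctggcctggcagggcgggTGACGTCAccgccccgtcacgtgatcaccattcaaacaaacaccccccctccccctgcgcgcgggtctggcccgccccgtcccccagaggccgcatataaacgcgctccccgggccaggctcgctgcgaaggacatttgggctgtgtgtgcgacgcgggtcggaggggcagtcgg
EGR1 holds 2 CArG boxes in this window and DUSP1 holds TGACGTCA once.

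Targets of the integrated stress response, the program that ATF4 drives when amino acids are short or proteins misfold, behaved alike. Of 14 detected members control 1 was the highest array for 14, against 40.5% of all genes, and 7 had a range over 1, against 4.56%. The median difference of control 1 from the others was 0.88, against -0.01 over all genes. PPP1R15A, which restores translation after stress, had 11.76, 10.38 and 9.44 (10.53 ± 1.16), ASNS, asparagine synthetase, 12.68, 11.84 and 11.87 (12.13 ± 0.48), and CEBPB, a stress transcription factor, 12.46, 11.71 and 11.35 (11.84 ± 0.57). ATF4 itself, which is controlled mainly by translation, had 14.65, 14.45 and 14.50 (14.53 ± 0.10). Controls 2 and 3 were the closest pair for PPP1R15A, ASNS, CEBPB and ATF4, although PPP1R15A also separated control 2 from control 3. Without control 1 the median SD of the list was 0.071 in place of 0.521, with the same limit as for immediate early genes. ATF3 belongs to both this list and the immediate early list.

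Proteasome and chaperone genes went the other way on control 1. Of 27 detected proteasome genes control 1 was the lowest array for 26, against 43.0% of all genes, with a median difference of -0.40 from the other controls, although none had a range over 1. PSMA1, a subunit of the 20S core, had 13.63, 13.91 and 14.03 (13.86 ± 0.20) and PSMB3 13.42, 13.82 and 13.75 (13.66 ± 0.21). Of 21 chaperones, a list of cytosolic members that also holds the mitochondrial HSPD1, it was the lowest for 18, with a median difference of -0.47 and 4 ranges over 1. HSPA1B, the inducible HSP70, had 13.50, 14.85 and 14.73 (14.36 ± 0.75) and HSPD1, or HSP60, 13.82, 14.11 and 14.11 (14.01 ± 0.17). HSPB1, the small heat shock protein HSP27, was the reverse, at 14.45, 13.95 and 13.71 (14.04 ± 0.38). Probes of HSPA1B and of HSPA1A, its near-identical neighbour, may not tell their transcripts apart. Without control 1 the median SD was 0.060 in place of 0.234 for the proteasome and 0.074 in place of 0.282 for chaperones. The limit given for immediate early genes on leaving out control 1 holds here too. Mitochondrial ribosomal proteins had control 1 lowest in 44 of 59 and a median difference of -0.26, while cytosolic ribosomal proteins had 21 of 68 and 0.07. Slide section and culture differ together between the 3 arrays, so their parts in these differences cannot be told apart.

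**Figure D5:**
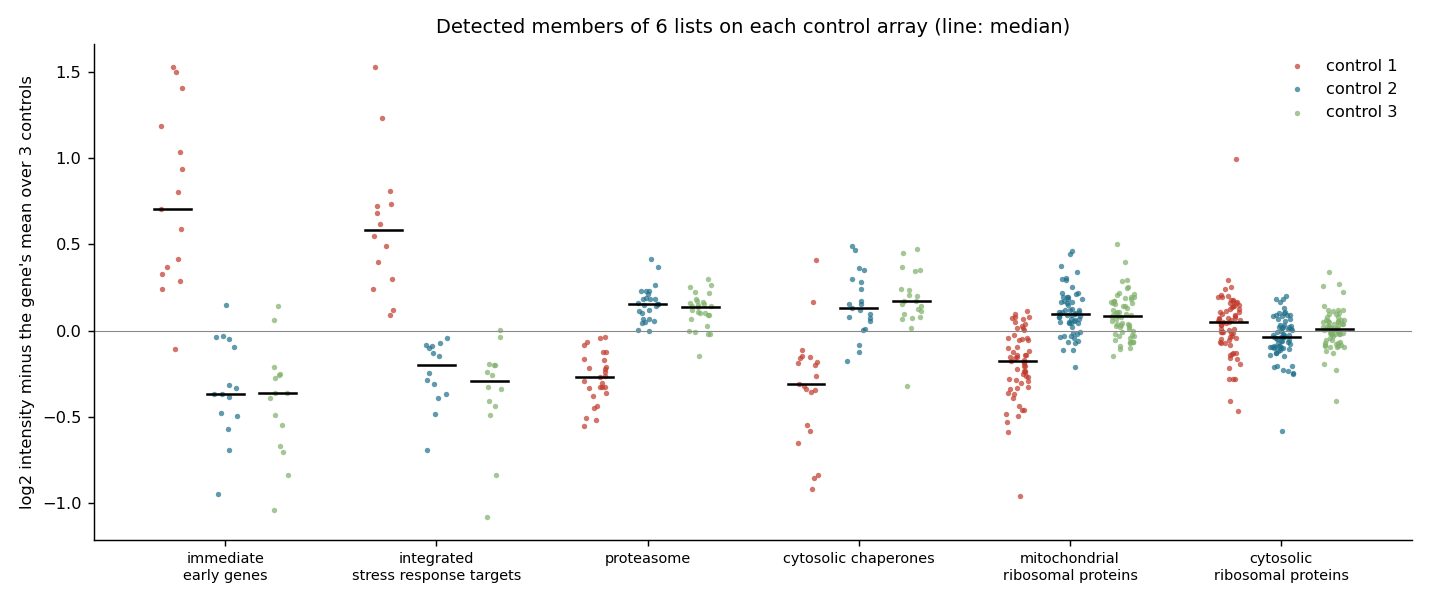
Log2 intensity minus the gene's own mean over the 3 controls (vertical axis) for each detected member of 6 lists, split by control array, with a line at the median. On control 1 the median is 0.71 for immediate early genes and 0.58 for stress response targets, and -0.27 for the proteasome and -0.31 for chaperones, while cytosolic ribosomal proteins sit at 0.05.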

How the data were processed

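TRIzol served to extract the RNA and Illumina TotalPrep to amplify it, per the labels' protocols, and streptavidin-Cy3 was the stain. BeadStudio was used, per the submitters' processing notes. The deposited non-normalized table gives for each probe and array a mean intensity, its bead standard error and a detection p-value, and the number of beads as counts, per the file headers. The table covers 6 arrays, of which the 3 controls were used. From its intensities, levels were computed with limma 3.58.1 in R 4.3.3, by the steps of neqc: background correction by a normal-exponential model with an offset of 16, quantile normalization over the 3 arrays and log2. Python 3.11.15 and pandas 2.3.3 did the rest.

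A probe was detected at a p under 0.01 on all 3 arrays. A gene was read on its brightest detected probe, by mean over the controls. Probes were named through the platform annotation, 27578 with 1 gene, 13 with several and 21212 with none, and 27541 of the first kind matched a current RefSeq symbol. For the probes no genome build is given in the sources. RefSeq promoters on GRCh38.p14 were matched by gene identifier, and a set with under 80% matched was left without values.

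With 1 group and no contrast, no test was made, and statements rest on counts, medians and SD. The calculation of spread and the detection status of genes were tested on simulated data, and the normalization was not. Alternatives were other detection thresholds, scalings and probe rules, no background correction, the deposited value table and leaving out each array. The members and gene lists were chosen with earlier results of these data known. Genes were named by rule: the 20 brightest, the 15 of largest SD, the 10 of largest range and the 5 of smallest SD among those of mean at least 8, the first 4 of each lineage list, up to 6 brightest detected and 4 undetected members of each list, and the brightest gene of each family. CCR6, CDKN2A, CGAS, EGR3, HOXA2, HOXB1, HOXD13, HSPA1A, ITIH5, KLF2, LHX1, LILRB3, MKI67, MYD88, PAX8, PPP1R15A, RIGI, SMO and the genes of the closing observations were chosen after their values were seen, as were the sequences printed. A gene list is not reported here.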

Additional observations from a re-analysis of the deposited data

How the results depend on the processing

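Of the counts of detected members, 43 of 52 lists stayed within 1.5 times at a detection p under 0.05. The others became 3 for proximal tubule, 2 for loop of Henle, 3 for chromaffin, and 2 each for T and NK cell, myeloid, hepatocyte, muscle, pancreas and lung genes, and the share of promoters with a high CpG ratio became 83.2% and with GGGCGG 69.9%. At a p under 0.001, 40 lists stayed within 1.5 times, among them immediate early genes with 10 in place of 15 and interferon-induced genes with 8 in place of 12. Proximal tubule, chromaffin, T and NK cell, B cell and melanocyte genes became 0, collecting duct, adrenal cortex and endothelium 1 each, nephron progenitor and channels 2 each, mesenchyme and nuclear receptors 8 each, and the CpG share 86.9%. Without background correction, 134 genes had a range over 1 in place of 426, and between 294 and 613 under the other thresholds, scalings and probe rules. Leaving out 1 array gave a range of 0.098 (without control 1) to 0.193 for the median SD and of 11 (without control 1) to 352 genes for a range over 1, with 274 without control 3. It gave 1 to 2 T and NK cell, 0 to 1 muscle and 1 to 2 lung genes, the higher values without control 2, or without control 3 for lung. The causes were not tested, except that 2 arrays span a smaller range than 3. Levels of 255 named genes moved by more than their SD in 145 under the authors' processed intensities, 109 on normalization over all 6 arrays, 78 without background correction, 57 with the mean over probes (down to -5.77) and 5 under median scaling. A list member on a dim probe can pass or miss the threshold. No paired analysis was possible because there is 1 group and the labels number no replicates.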

Other observations

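Beyond the gene lists, other secreted and regulatory genes were high on control 1. CCN2, a matricellular growth factor, had log2 intensities of 13.23, 11.28 and 11.17 on controls 1 to 3. TXNIP, an inhibitor of thioredoxin, had 10.58, 8.39 and 8.51, and STC1, the hormone stanniocalcin, 10.39, 8.19 and 8.34. TNFAIP3, a brake on NF-kappa-B, had 8.34, 6.42 and 6.28. In each of these genes controls 2 and 3 lay close together. The genes farthest below the other controls on control 1 included POLR2L, a small subunit of RNA polymerases, with 6.10, 7.92 and 7.99. MRPL20, a mitochondrial ribosomal protein, had 7.76, 9.18 and 9.22. PSME3, a proteasome activator, had 10.29, 11.67 and 11.69, and the metallothionein MT1X 10.14, 11.46 and 11.47.

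Between controls 2 and 3 the 11 genes more than 1 apart were all higher on control 2. They were ADAP1, ANKRD9, CCDC106, CTXN1, DNAJC30, DTX2, HES4, PALM, PLD3, SF3A2 and SNAR-A1. SNAR-A1, a small noncoding RNA, had 13.84, 13.73 and 12.21, and the splicing factor SF3A2 11.56, 11.29 and 10.27. The lysosomal PLD3 had 9.81, 8.98 and 7.95. In SNAR-A1 and SF3A2 control 1 lay with control 2, and control 3 lay apart. No cause of these differences was tested.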
